A study of Mus musculus with 14 samples.

Results

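The genes described are 10 matrix metalloproteinases of the mouse: Mmp2, Mmp3, Mmp8, Mmp9, Mmp12, Mmp13, Mmp14, Mmp16, Mmp19 and Mmp23. They were found as the probe sets that the array annotation pairs with these symbols alone. All 10 had 1 such probe set each, 0 probe sets named a member together with another gene, and the 10 are part of 22 family genes and of 19938 genes measured this way. The tissue was the plantaris, a calf muscle, of male C57BL/6J mice that were 25 months old in every group. Its neighbours, the gastrocnemius and soleus, had been removed (synergist ablation), so that the plantaris carried their load. Groups are the days of overload: 0, 1, 3, 5, 7, 10 and 14, with 2 arrays on each day and 14 in all. On each day the left array held RNA pooled from the left muscles of 6 animals and the right array a pool of right muscles. Day 0 is the reference in what follows; its arrays carry the same protocol text as the others, and no array is labelled as sham surgery. Pooling hides how animals differ, and the same 6 animals may have given both pools of a day, so error estimates and p-values reflect left against right pools and not separate animals.

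Matrix metalloproteinases are zinc enzymes that cut proteins outside the cell, among them collagens, elastin, laminins and other proteases. Most are secreted as inactive pro-forms and some are anchored in the cell membrane; tissue inhibitors of metalloproteinases (TIMPs) bind and block the active enzymes. In injured or remodelling muscle, Mmp8 and Mmp9 are known as granule enzymes of neutrophils, Mmp12 as the elastase of macrophages, and Mmp2 and Mmp14 as enzymes of fibroblasts and other stromal cells. Transcription of several members is known to be driven through binding sites for AP-1, the dimer of Fos and Jun proteins.

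Promoter sequences are shown because they bear on that AP-1 background and because 4 members are neighbours. In the RefSeq gene order, Mmp13, Mmp12, Mmp3 and Mmp8 lie on chromosome 9 in a row of 10 metalloproteinase genes with no other protein-coding gene between them. RefSeq promoter windows (build GRCm38.p6) were matched for 6 of the 10 members: Mmp3, Mmp8, Mmp12, Mmp13, Mmp14 and Mmp23, with 8 windows because Mmp12 and Mmp23 have 2 starts each; Mmp2, Mmp9, Mmp16 and Mmp19 were not matched. The 250 bases before each start were searched on both strands for TGACTCA (AP-1, which reads TGAGTCA on the other strand), AGGAAG (the ETS factor motif PEA3) and TATAAA (the TATA box); no match of one motif overlaps a match of another. The last 150 bases before the start are given 5′ to 3′ on the gene's strand, with AP-1 and TATA box matches in capitals, for the 3 windows with an AP-1 match and, as a neighbour without a match, Mmp8:
Mmp3, chr9:7445672-7445821, plus strand: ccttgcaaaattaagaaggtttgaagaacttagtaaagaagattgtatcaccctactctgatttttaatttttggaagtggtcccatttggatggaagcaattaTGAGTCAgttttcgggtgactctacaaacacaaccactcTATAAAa
Mmp13, chr9:7272364-7272513, plus strand: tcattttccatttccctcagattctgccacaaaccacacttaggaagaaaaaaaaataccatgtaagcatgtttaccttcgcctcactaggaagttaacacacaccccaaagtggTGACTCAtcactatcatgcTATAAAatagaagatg
Mmp12, start 2, chr9:7347224-7347373, plus strand: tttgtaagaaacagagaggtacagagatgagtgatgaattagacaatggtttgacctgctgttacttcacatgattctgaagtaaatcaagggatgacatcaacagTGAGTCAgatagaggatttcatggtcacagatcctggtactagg
Mmp8, chr9:7558279-7558428, plus strand: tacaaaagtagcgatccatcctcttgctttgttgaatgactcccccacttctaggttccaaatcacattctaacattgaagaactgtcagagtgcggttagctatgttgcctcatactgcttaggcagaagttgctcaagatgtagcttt

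Counted from the start, whose preceding base is -1, the AP-1 letters lie at -46 to -40 in Mmp3, -35 to -29 in Mmp13 and -44 to -38 before the second start of Mmp12. Over all 32851 windows of this kind, 4.46% hold the AP-1 letters, 29.5% the ETS letters and 12.4% the TATA letters. Mmp3 and Mmp13 also hold the TATA letters on the gene's strand, at -7 to -2 and at -16 to -11. On that strand alone, 7.59% of all windows hold them. The ETS letters stand before a start of Mmp3, Mmp8, Mmp12, Mmp13 and Mmp14, and Mmp13 holds 2 copies. A match describes the letters and not a bound site.

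Values are log2 signals per probe set as deposited, with array medians between 7.91 and 7.97, and no background call was used. Across genes, which are not independent replicates, the paired pools of each day reached r from 0.994 to 0.997. Muscle fibre markers were high on all arrays, with Acta1, the skeletal alpha-actin, at a mean of 14.3; the mean over 8 fibre markers was 13.97 and 14.00 on the arrays of day 0 and lowest on day 5, at 13.45 and 13.13. On day 5, 7 of the 8 fibre markers were lower than on day 0. In bulk muscle, fewer cells of a type and less RNA per cell cannot be told apart, which holds for every gene named here.

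Most members rose and stayed high. Against day 0, 6 of the 10 genes were higher and 1 lower on day 1, 9 were higher on each of days 3, 5, 7 and 10 with 0, 0, 1 and 1 lower, and 8 were higher and 2 lower on day 14. The largest rises were those of Mmp3 on day 1, Mmp14 and Mmp13 on day 10, Mmp12 on day 5 and Mmp19 on day 1. The tests are limma's moderated tests with Benjamini-Hochberg adjustment over all 19938 genes, and a gene was called at an adjusted p under 0.05. Over all genes, 22.3% were called higher and 22.6% lower on day 1, 24.1% higher and 26.6% lower on day 3, 26.4% higher and 33.7% lower on day 5, 26.6% higher and 36.3% lower on day 7, 25.9% higher and 34.3% lower on day 10, and 22.9% higher and 30.5% lower on day 14. The median difference of the 10 members was 0.89 on day 1, 1.70 on day 3 and 2.16 on day 5. It was 1.86 on day 7, 2.14 on day 10 and 2.18 on day 14. Medians over all genes lay between -0.14 and 0.04. The members were chosen with earlier results of these data known, so the shares and medians over all genes describe them and test nothing. All 10 differed among the 7 days by limma's moderated F test, as did 79.5% of all genes.

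**Figure D1:**
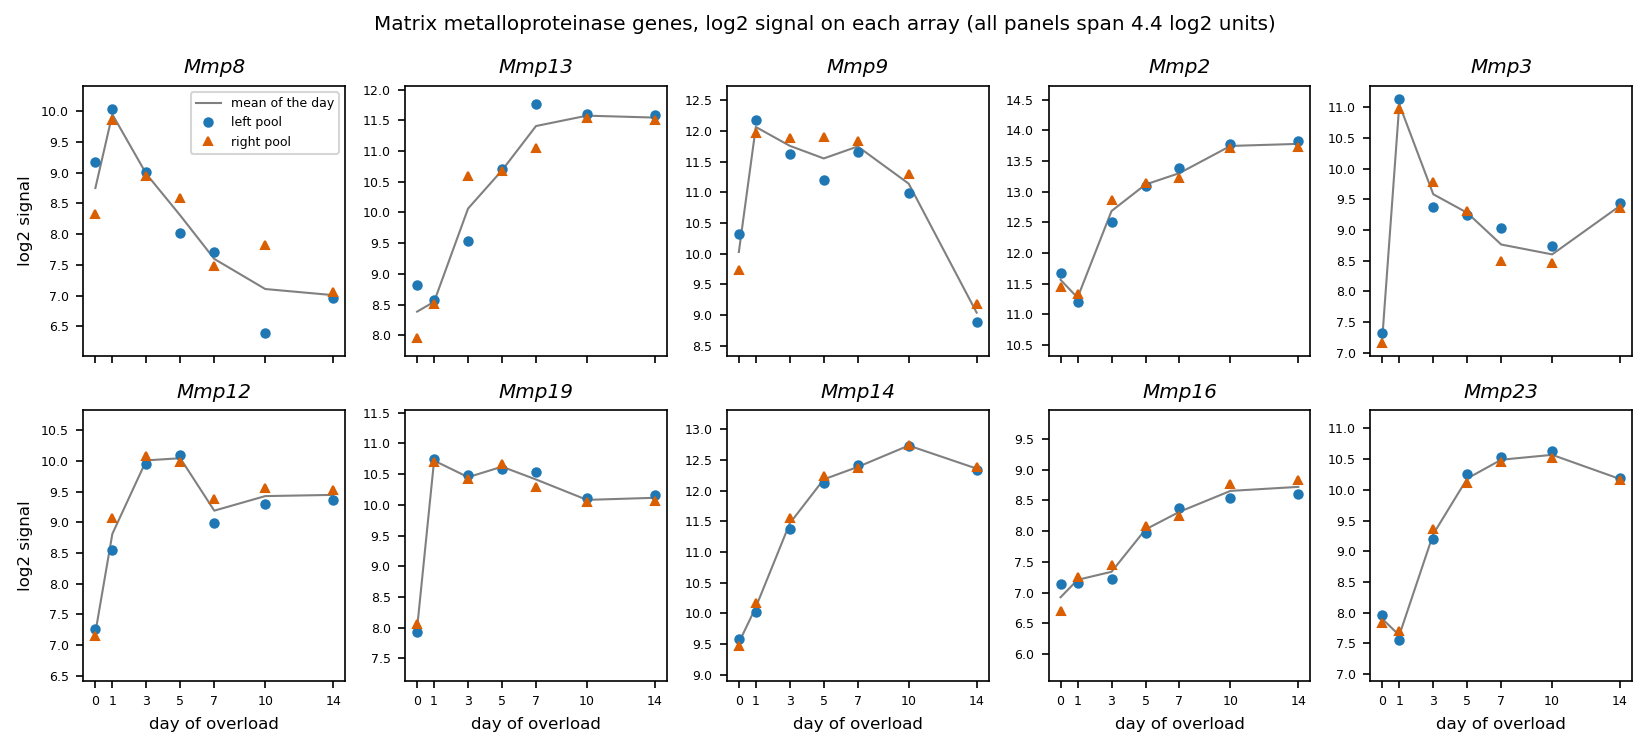
Log2 signal (vertical) of the 10 metalloproteinase genes against the day of overload (horizontal), with a circle for the left pool, a triangle for the right pool and a line through the mean of the day. Each panel spans the same number of log2 units, so slopes can be compared; Mmp3 and Mmp19 jump by day 1, Mmp2, Mmp13, Mmp14, Mmp16 and Mmp23 climb to days 10 or 14, and Mmp8 and Mmp9 end below day 0.

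**Figure D2:**
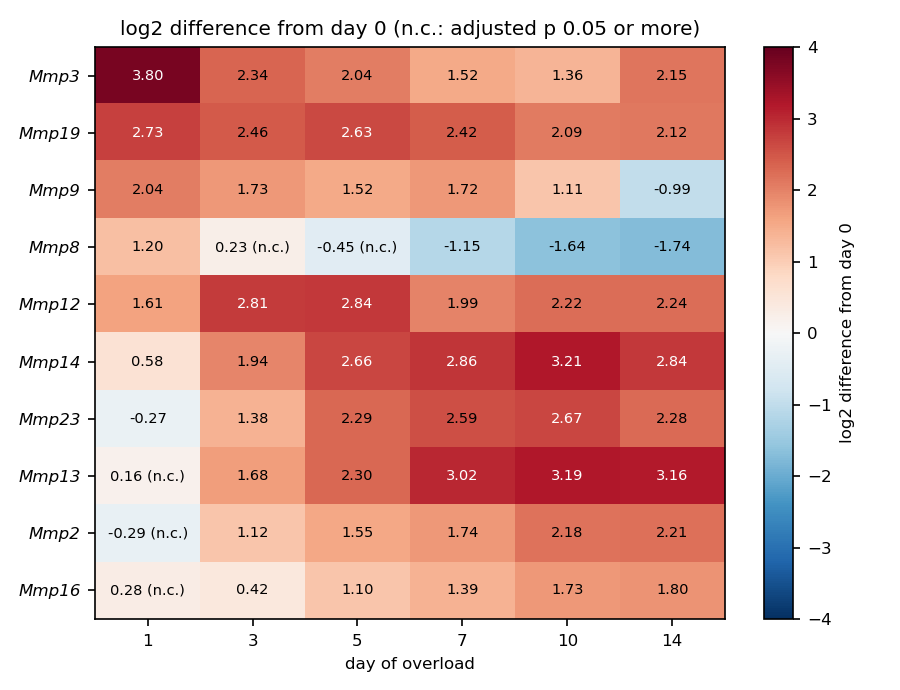
Mean log2 difference from day 0 for each gene (rows) and day (columns), with red for higher and blue for lower; n.c. marks differences with an adjusted p of 0.05 or more by limma. Mmp3 has the deepest red on day 1 (3.80), whereas Mmp14 reaches 3.21 on day 10 and Mmp8 turns to -1.74 on day 14.

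The collagenases Mmp8 and Mmp13, which cut fibrillar collagen, went opposite ways. Mmp8, the neutrophil collagenase, had log2 signals of 9.18 (left) and 8.33 (right) on day 0, 10.04 and 9.86 on day 1, 9.01 and 8.95 on day 3, and 8.02 and 8.59 on day 5. It stood at 7.71 and 7.49 on day 7, 6.39 and 7.83 on day 10 and 6.96 and 7.05 on day 14. Both arrays of day 1 lay above both of day 0, those of days 3 and 5 overlapped day 0, and all 6 arrays of days 7, 10 and 14 lay below it. Mmp8 was thus 1.20 ± 0.37 (SE) higher on day 1 by limma, a 2.30-fold rise (adjusted p = 0.0188). It was lower by the same test on day 7 at -1.15 ± 0.37 (adjusted p = 0.0172), on day 10 at -1.64 ± 0.37 (adjusted p = 0.0023) and on day 14 at -1.74 ± 0.37 (adjusted p = 0.0019). The call of day 1 ended without the right array of day 0 (0.78) or either array of day 1 (1.11 without the left and 1.29 without the right), and that of day 7 without the left array of day 0 (-0.73) or the right of day 7 (-1.04); both also ended with an intensity trend and robust estimation. Without the left array of day 10 the difference of that day was -0.93 (adjusted p = 0.0215).

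Most neutrophil markers moved with Mmp8, and some did not. Of the 15 listed, 13 were measured, and 9 were higher and 2 lower on day 1. Those lower were Ltf (-1.63) and Camp (-1.14), named after their values were seen. On day 7, 3 were higher and 8 lower, and on day 10, 3 were higher and 9 lower. The 3 higher on both days were Csf3r, Trem1 and Il1r2, likewise named. On day 14, 0 were higher and 10 lower. The mean log2 signal of the 13 was 9.74 and 9.15 on the arrays of day 0, 10.98 and 10.67 on day 1, and between 7.75 and 8.89 on those of days 7, 10 and 14. S100a8, a subunit of calprotectin in neutrophils, rose by 1.5 ± 0.35 on day 1 (adjusted p = 0.0033) and stood at -1.68 ± 0.35 on day 14 (adjusted p = 0.0015). Ngp, a granule gene of neutrophil precursors, was not higher on day 1 (-1.52, adjusted p = 0.0798) and fell by 2.61 ± 0.66 by day 10 (adjusted p = 0.0046). Elane, the neutrophil elastase gene, transcribed in precursors, was called lower on all 6 days, by 1.09 ± 0.40 on day 1 (adjusted p = 0.0404) and by 1.81 ± 0.40 on day 10 (adjusted p = 0.0018). The part of these cells in the levels of Mmp8 was not tested.

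The sides of a day also differed together. Right minus left, Mmp8 was at -0.85 on day 0, 0.58 on day 5 and 1.44 on day 10, and the neutrophil marker mean at -0.59, 0.76 and 1.01 on the same days. Both had the same sign on 7 of 7 days. On day 10 Ngp was 2.16 higher in the right pool than in the left and Lcn2, a neutrophil granule protein known to bind the Mmp9 protein, 1.69 higher. Ibsp, the bone sialoprotein gene, was 1.26 lower in the right than in the left pool of day 0 and 1.38 higher in that of day 10. The left array of day 10 held the lowest Mmp8 signal of the 14 arrays.

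**Figure D3:**
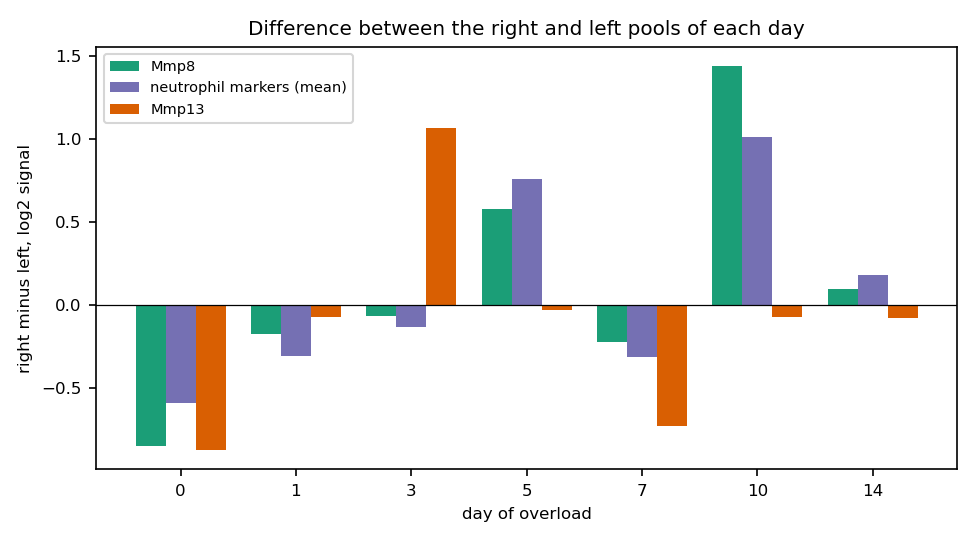
Right minus left log2 signal (vertical) on each day (horizontal) for Mmp8, for the mean of 13 neutrophil markers and for Mmp13. Mmp8 and the neutrophil mean share their sign on all 7 days and are farthest apart between sides on day 10 (1.44 and 1.01), whereas Mmp13 is farthest apart on day 3 (1.07).

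Mmp13, collagenase 3, known from fibroblasts, cartilage and bone cells, rose late and stayed high. Its signals were 8.82 (left) and 7.95 (right) on day 0, 8.58 and 8.51 on day 1, 9.53 and 10.60 on day 3, and 10.70 and 10.67 on day 5. They were 11.77 and 11.05 on day 7, 11.61 and 11.54 on day 10, and 11.58 and 11.51 on day 14. Day 1 overlapped day 0, and every array from day 3 on lay above both arrays of day 0. The difference was 0.16 ± 0.33 on day 1 (limma adjusted p = 0.726), 1.68 ± 0.33 on day 3 (adjusted p = 8.0e-04) and 3.19 ± 0.33 on day 10 (adjusted p = 3.7e-06), a 9.14-fold level. Between days 7, 10 and 14 no pair was called apart. The sides differed by 0.87 on day 0, with the left higher, and by 1.07 on day 3, with the right higher, and the mean of 6 cartilage and bone markers by 0.28 and 0.30 in the same directions. Mmp13 and this mean had the same sign on 4 of 7 days, and on day 10 they stood at -0.07 and 0.39. Of those 6 markers 2 were higher and 1 lower on day 10. Acan, the cartilage proteoglycan aggrecan, named after its values were seen, was 2.27 ± 0.20 higher on day 10 (adjusted p = 1.3e-06) and 2.76 ± 0.20 on day 14 (adjusted p = 4.0e-07), and Acp5, an acid phosphatase of osteoclasts and macrophages, was 1.48 ± 0.21 higher on day 10 (adjusted p = 6.6e-05). Col2a1, the collagen of cartilage, did not pass on any day (-0.06 on day 10, adjusted p = 0.59). The part of such cells in the Mmp13 level was not tested.

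The gelatinases Mmp9 and Mmp2, which cut denatured collagen and basement membrane collagen, were both higher from day 3 to day 10 and then parted. Mmp9, gelatinase B, stood at 10.33 (left) and 9.73 (right) on day 0, 12.17 and 11.96 on day 1, 11.63 and 11.88 on day 3, and 11.21 and 11.90 on day 5. It stood at 11.66 and 11.84 on day 7, 10.98 and 11.30 on day 10, and 8.89 and 9.19 on day 14. All arrays of days 1 to 10 lay above day 0 and both of day 14 below it. The rise was 2.04 ± 0.23 on day 1 (4.10-fold, limma adjusted p = 1.2e-05) and 1.72 ± 0.23 on day 7 (adjusted p = 3.5e-05). On day 14 Mmp9 was 0.99 ± 0.23 below day 0 on the log2 scale (1.98-fold, adjusted p = 0.0033), and 2.10 ± 0.23 below day 10 (adjusted p = 7.0e-04). No pair among days 1, 3, 5 and 7 was called apart for Mmp9.

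Markers of cells known to make Mmp9 are given beside it. On day 7, when Mmp9 was 1.72 above day 0, 8 of 13 neutrophil markers were lower and 3 higher, and 14 of 15 macrophage and monocyte markers were higher. By day 14, when Mmp9 was below day 0, 14 of 15 macrophage markers were still higher. Acp5, named above beside Mmp13, stood at 1.83 ± 0.21 on day 7 (adjusted p = 1.0e-05) and at 0.42 ± 0.21 on day 14 (adjusted p = 0.115). It is 1 of 6 cartilage and bone markers, of which 3 were higher and 1 lower on day 7. On day 14, 1 of the 6 was higher and 0 lower. The marker lower on day 7 was Calcr, at -0.48 ± 0.11 (limma adjusted p = 0.0026), named after its values were seen. The part of any of these cells in the Mmp9 level was not tested. Right minus left, Mmp9 was at -0.60 on day 0 and 0.69 on day 5, and it had the sign of the neutrophil mean on 5 of 7 days and that of the cartilage and bone mean on 6 of 7. Mmp8 and the cartilage and bone mean also shared their sign on 6 of 7 days.

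Mmp2, gelatinase A, had a higher mean on each sampled day after day 1 than on the one before. Its signals were 11.68 (left) and 11.44 (right) on day 0, 11.21 and 11.34 on day 1, 12.50 and 12.87 on day 3, and 13.10 and 13.13 on day 5. They were 13.39 and 13.21 on day 7, 13.78 and 13.71 on day 10, and 13.83 and 13.72 on day 14. The difference was -0.29 ± 0.12 on day 1 (limma adjusted p = 0.0684), 1.12 ± 0.12 on day 3 (adjusted p = 5.6e-06) and 2.21 ± 0.12 on day 14 (4.64-fold, adjusted p = 3.0e-08). The 2 arrays of day 1 lay below both of day 0, and the difference passed with equal array medians (-0.32, adjusted p = 0.0386), without the lowest 25% of genes (adjusted p = 0.0495), with an intensity trend (adjusted p = 0.0431) and without the right array of day 0 (-0.41, adjusted p = 0.0355). Days 10 and 14 were not called apart (0.03 ± 0.12, adjusted p = 0.92). The steps from day 3 to 5 (0.43, adjusted p = 0.0541) and day 5 to 7 (0.19, adjusted p = 0.612) did not pass either. Nor did that from day 7 to 10 (0.44, adjusted p = 0.0885), whereas day 10 was called 1.06 above day 3 (adjusted p = 4.2e-05).

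Mmp3, Mmp12 and Mmp19 were higher on all 6 days. Mmp3, stromelysin 1, cuts proteoglycans and laminin and activates other pro-forms. Its signal went from 7.33 (left) and 7.16 (right) on day 0 to 11.13 and 10.96 on day 1, then to 9.38 and 9.78 on day 3, 9.24 and 9.32 on day 5, 9.03 and 8.49 on day 7 and 8.74 and 8.46 on day 10, and to 9.43 and 9.36 on day 14. The rise of day 1 was 3.80 ± 0.17, which is 14.0-fold (limma adjusted p = 6.9e-09), and the largest of any member on any day. From day 1 to day 3 Mmp3 fell by 1.47 ± 0.17 on the log2 scale (adjusted p = 3.4e-05). It was lowest after day 0 on day 10, at 1.36 ± 0.17 above day 0 (adjusted p = 2.3e-05). Day 14 was then 0.79 ± 0.17 above day 10 (adjusted p = 0.0162), a second rise that lost its call without the right array of day 10 (0.65) or either array of day 14 (0.75 without the left and 0.83 without the right).

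Mmp12, the elastase of macrophages, was highest on days 3 and 5, as was the mean of the macrophage markers. Its signals were 7.26 and 7.14 on day 0, 8.55 and 9.08 on day 1, 9.94 and 10.07 on day 3, 10.10 and 9.98 on day 5, 8.99 and 9.39 on day 7, 9.30 and 9.55 on day 10, and 9.36 and 9.53 on day 14, left before right. All 12 arrays of later days lay above day 0. Mmp12 was 1.61 ± 0.17 higher on day 1 (limma adjusted p = 6.0e-06) and 2.84 ± 0.17 higher on day 5 (7.16-fold, adjusted p = 2.8e-08). Days 3 and 5 were not called apart (0.03, adjusted p = 0.931), and day 7 was 0.85 ± 0.17 below day 5 on the log2 scale (adjusted p = 0.0343), a call that ended without any single array of the 4 (values from -0.66 to -1.05) and with only those arrays in the fit. The mean of 15 macrophage and monocyte markers was 8.92 and 8.53 on day 0 and between 11.53 and 11.59 on the arrays of days 3 and 5. On day 14 it was 10.50 and 10.61. Single markers could peak earlier: Cd14 and Itgam, named after their values were seen, were highest on day 1, at 3.75 and 3.36 above day 0. All 15 were higher on days 3 and 5, among them Cd68, a lysosomal protein of macrophages, by 3.59 ± 0.16 on day 3 (adjusted p = 5.4e-09). Their part in the Mmp12 level was not tested.

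Mmp19, a secreted enzyme of basement membrane and matrix found in many cell types, rose at once and stayed near its level. It had signals of 7.93 (left) and 8.05 (right) on day 0, 10.75 and 10.70 on day 1, and 10.49 and 10.42 on day 3. On days 5, 7, 10 and 14 they were 10.58 and 10.66, 10.53 and 10.30, 10.11 and 10.05, and 10.16 and 10.07. No array after day 0 fell below 10.05. The difference was 2.73 ± 0.09 on day 1 (6.63-fold, limma adjusted p = 7.0e-10) and 2.12 ± 0.09 on day 14 (adjusted p = 4.0e-09). Day 14 was 0.61 ± 0.09 below day 1 (adjusted p = 1.0e-04). The step from day 1 to day 3 was -0.27 ± 0.09 (adjusted p = 0.0259) and did not hold without any single array of the 4.

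**Figure D4:**
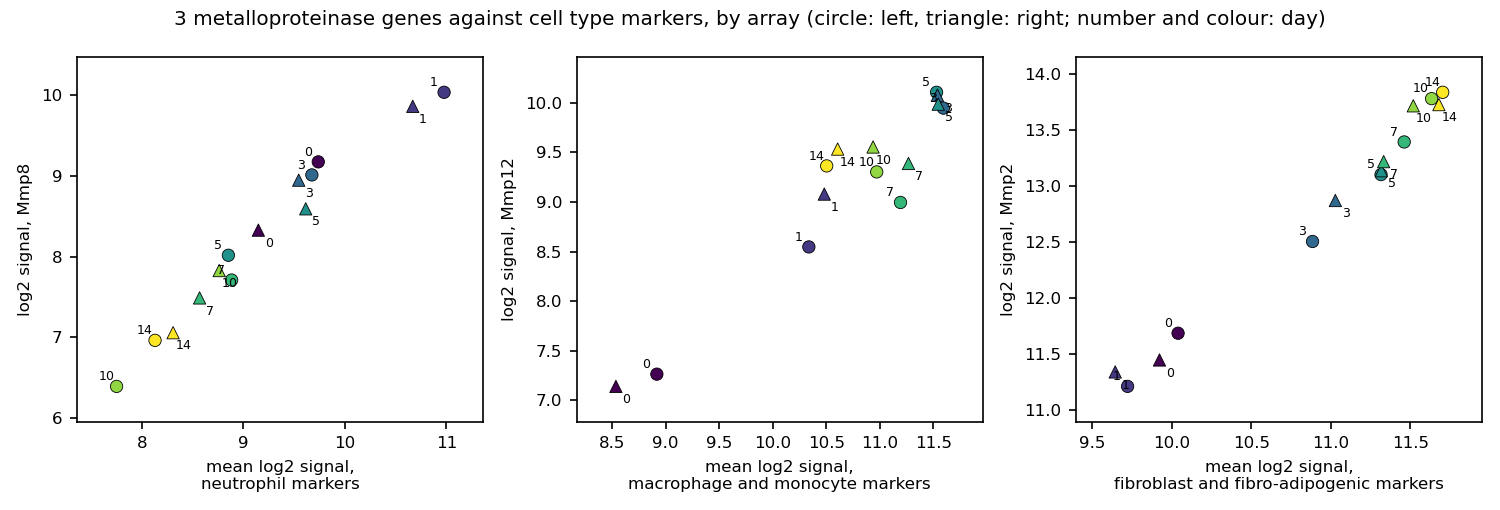
Log2 signal of Mmp8, Mmp12 and Mmp2 (vertical) against the mean log2 signal of neutrophil, macrophage and fibroblast markers (horizontal) on the 14 arrays; circles are left and triangles right pools, and numbers give the day. Arrays of day 1 are highest for Mmp8 and the neutrophil mean (10.98 and 10.67), those of days 3 and 5 for Mmp12 and the macrophage mean, and those of days 10 and 14 for Mmp2.

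Members bound to the cell membrane rose mostly after day 1, with Mmp14 already higher on that day. Mmp14, also called MT1-MMP, cuts collagen at the cell surface and activates the pro-form of Mmp2. Its signals were 9.58 (left) and 9.46 (right) on day 0, 10.03 and 10.17 on day 1, 11.37 and 11.56 on day 3, and 12.12 and 12.25 on day 5. They were 12.41 and 12.36 on day 7, 12.72 and 12.75 on day 10, and 12.33 and 12.38 on day 14. All 12 arrays of later days lay above those of day 0, and the sides never differed by more than 0.19. Mmp14 was 0.58 ± 0.09 higher on day 1 (limma adjusted p = 1.4e-04) and 3.21 ± 0.09 higher on day 10 (9.26-fold, adjusted p = 1.6e-10). The step from day 3 to day 5 was a rise of 0.72 ± 0.09 (adjusted p = 4.6e-04). Day 14 was 0.38 ± 0.09 below day 10 on the log2 scale (adjusted p = 0.0223), and the call ended without any single array of the 4 (-0.35 to -0.40).

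Mmp23, anchored in the membrane by its amino end, was the only member called lower on day 1. It had signals of 7.96 (left) and 7.84 (right) on day 0, 7.56 and 7.70 on day 1, and 9.19 and 9.37 on day 3. On days 5, 7, 10 and 14 they were 10.26 and 10.11, 10.53 and 10.45, 10.63 and 10.52, and 10.19 and 10.16. Day 1 lay below day 0 on both arrays and every later array lay above it. The fall of day 1 was small, -0.27 ± 0.09 (limma adjusted p = 0.0296), and did not pass without the left array of day 0 (-0.21), without the left array of day 1 (-0.20) or with only the 4 arrays in the fit (adjusted p = 0.0869). Mmp23 then rose to 2.67 ± 0.09 above day 0 on day 10 (6.37-fold, adjusted p = 5.7e-10) and was 0.39 ± 0.09 lower on day 14 than on day 10 (adjusted p = 0.021), a step that did not pass without any single array of the 4.

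Mmp16, or MT3-MMP, had the smallest rise of those still higher on day 14. Its signals were 7.14 (left) and 6.70 (right) on day 0, 7.15 and 7.26 on day 1, 7.23 and 7.45 on day 3, and 7.97 and 8.09 on day 5. They were 8.38 and 8.25 on day 7, 8.54 and 8.77 on day 10, and 8.61 and 8.83 on day 14. Day 1 was at 0.28 ± 0.14 (limma adjusted p = 0.126) and day 3 at 0.42 ± 0.14 (adjusted p = 0.0269). The value of day 3 was 0.64 without the left array of day 0, and its call ended with equal array medians (0.32), without the right array of day 0 (0.20), without the right array of day 3 (0.30) and with only the 4 arrays in the fit. From day 3 to day 5 Mmp16 rose by 0.69 ± 0.14 (adjusted p = 0.0121), a step that did not pass without the left array of day 3 (0.58) or the right array of day 5 (0.63). It reached 1.80 ± 0.14 above day 0 on day 14 (3.48-fold, adjusted p = 6.4e-07).

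Mmp14 was already higher on day 1, when most fibroblast markers were not. From day 3 on, most fibroblast markers were higher, as were Mmp2, Mmp13, Mmp14, Mmp16 and Mmp23. Of 11 measured, 3 were higher and 5 lower on day 1, 7 were higher and 1 lower on day 3, and 9 were higher and 1 lower on day 14. The marker lower on all 6 days was Gsn, the actin-severing protein gelsolin, at -1.13 ± 0.10 on day 3 and -0.65 ± 0.10 on day 14 (limma adjusted p = 1.2e-04); the markers called lower are named after their values were seen. The mean over all 11 was 10.04 and 9.92 on day 0, 9.72 and 9.65 on day 1, and 11.70 and 11.68 on day 14. Postn, the matrix protein periostin, was 4.25 ± 0.19 above day 0 on day 10 (limma adjusted p = 4.2e-09), while Dcn, the proteoglycan decorin, stood at 0.04 ± 0.08 (adjusted p = 0.645). Tendon markers rose in 6 of 6 on days 10 and 14, with Tnmd, the tendon membrane protein tenomodulin, at 3.23 ± 0.16 on day 14 (adjusted p = 1.4e-08). Cells of the vessel wall and myoblasts were also measured: of 7 endothelial markers 5 were higher and 2 lower (Kdr and Tek) on day 10, of 7 smooth muscle and pericyte markers 5 were higher and 2 lower (Myh11 and Rgs5), and of 7 satellite cell and myoblast markers 6 were higher and 1 lower (Chrdl2). The part of each cell type in these 5 members was not tested.

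Between successive sampled days, most called steps came by day 5. Between days 1 and 3, 5 rose (Mmp2, Mmp12, Mmp13, Mmp14 and Mmp23; Mmp13 by 1.52, or by 0.98 without the right array of day 3) and 2 fell (Mmp3 and Mmp19), beside 19.5% of all genes called higher and 24.7% lower. Between days 3 and 5, 3 rose (Mmp14, Mmp16 and Mmp23) and 0 fell, beside 4.68% of all genes called higher and 1.9% lower. From day 5 to day 7, 1 fell (Mmp12) and 0 rose, beside 0.627% of all genes lower and 0.401% higher. From day 7 to day 10, 0 members were called in either direction, beside 0.933% of all genes higher and 1% lower. From day 10 to day 14, 1 rose (Mmp3) and 3 fell (Mmp9, Mmp14 and Mmp23), beside 3.79% and 5.11% of all genes. These are limma calls as above.

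Neighbours on chromosome 9 peaked on different days. Of the 4 neighbours, Mmp3 and Mmp8 were highest on day 1, Mmp12 on day 5 and Mmp13 on day 10. The 6 other genes of the row showed smaller differences: Mmp27 was 0.94 ± 0.11 higher on day 3 (limma adjusted p = 9.8e-06), and called changes of the others stayed between -0.50 and 0.36. The mean signals of these 6 ran from 4.64 (Mmp1b) to 7.55 (Mmp10), below the array medians of the tested genes (8.25 to 8.42). Without a background call, a small difference at such signals cannot be told from a gene that was not detected. Day means of some members lay in this range too: Mmp3 (7.24) and Mmp12 (7.20) on day 0 and Mmp8 (7.01) on day 14. For Mmp16 the call of day 3 (0.42) rested on means of 6.92 on day 0 and 7.34 on day 3, so the same limit applies. The 3 genes with AP-1 letters shown above, Mmp3, Mmp12 and Mmp13, had their highest day means on days 1, 5 and 10.

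Of the 12 other family members measured, 9 passed on at least 1 day, and on each single day 7 or more did not pass. The share of all genes that passed on at least 1 day was not counted, so the 9 have no background beside them. On day 1, 3 were higher and 0 lower, beside 22.3% and 22.6% of all genes. On day 10, 2 were higher and 3 lower, beside 25.9% and 34.3%, with a median of -0.09 against -0.13 over all genes. Because the members were chosen with earlier results known, the contrast of these 12 with them is a description. Mmp25, a membrane enzyme of leukocytes, rose by 1.20 ± 0.12 on day 1 (limma adjusted p = 4.7e-06) and stood at 0.07 on day 3 (adjusted p = 0.636). Mmp11, stromelysin 3 of fibroblasts, rose by 1.17 ± 0.10 on day 10 (adjusted p = 5.3e-07). With equal array medians, which moved the median of all genes by up to 0.14, the number lower on day 7 was 8 in place of 3.

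The inhibitors did not move as a set. Timp1, an inducible secreted inhibitor, went from 8.02 and 7.49 on the arrays of day 0 to 13.08 and 13.13 on day 3, and was 3.82 ± 0.13 above day 0 on day 14 (limma adjusted p = 1.2e-09). Timp2, which also joins Mmp14 in activating the Mmp2 pro-form, fell by 0.94 ± 0.08 on day 1 (adjusted p = 8.9e-07) and rose by 1.32 ± 0.08 by day 14 (adjusted p = 5.9e-08). Timp4, an inhibitor abundant in heart and muscle, went from 11.03 and 10.94 on day 0 to 7.71 and 7.55 on day 7. Timp3, held in the matrix, was 1.08 ± 0.11 lower on day 1 (adjusted p = 5.0e-06) and at 0.01 ± 0.11 on day 14 (adjusted p = 0.922). Reck, a membrane-anchored inhibitor, fell by 0.51 ± 0.13 on day 1 (adjusted p = 0.0076) and rose by 0.94 ± 0.13 by day 14 (adjusted p = 1.0e-04).

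**Figure D5:**
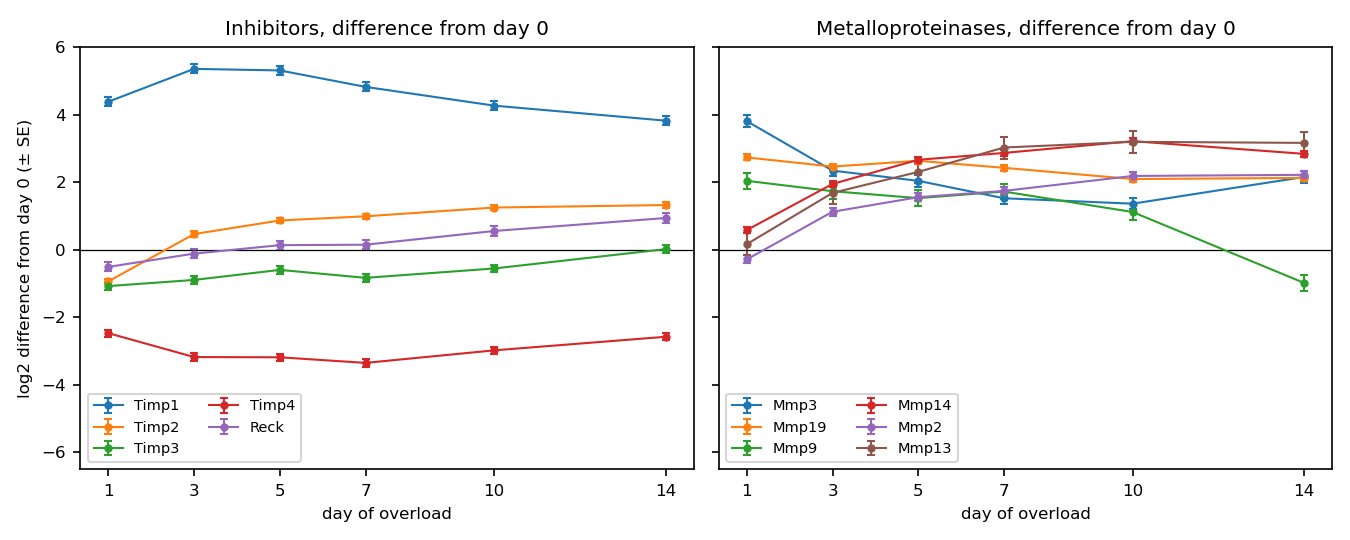
Log2 difference from day 0 (vertical, bars are the standard error of limma, 2 arrays per day) against the day of overload for 5 inhibitors (left panel) and 6 metalloproteinases (right panel). Timp1 stays above 3.8 and Timp4 below -2.4 on all days; Mmp9 alone among the 6 shown ends below day 0.

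Genes that switch the enzymes on were split. Of 14 measured activating proteases, receptors and inducers, 5 were higher and 4 lower on day 1, and 5 were higher and 7 lower on day 7. Plaur, the receptor of urokinase, rose by 2.71 ± 0.09 on day 1 (limma adjusted p = 1.2e-09), and Plat, tissue plasminogen activator, by 1.72 ± 0.09 on day 7 (adjusted p = 1.2e-08). The third gene named by size, Elane, fell, as given above beside the neutrophil markers.

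Regulators and cytokines known to induce the family were mostly highest on day 1. Of 14 regulators 10 were higher on day 1, with a median of 1.25 against 0.04 over all genes, and 8 were higher on day 14, with a median of 0.33. Fosl1, an AP-1 subunit, rose by 3.09 ± 0.14 on day 1 (limma adjusted p = 8.2e-09) and stood at -0.09 on day 14 (adjusted p = 0.589). Egr1, an immediate-early zinc finger factor, rose by 2.30 ± 0.11 on day 1 (adjusted p = 1.1e-08). Runx1, a factor of blood and muscle cells, rose by 2.72 ± 0.07 on day 1 and was still 2.26 ± 0.07 higher on day 14 (adjusted p = 6.4e-10). Of 10 cytokines 8 were higher on day 1 and 3 on day 14. Osm, oncostatin M of myeloid cells, rose by 2.43 ± 0.15 on day 1 (adjusted p = 8.9e-08) and was at 0.27 on day 7 (adjusted p = 0.13). Il1b, interleukin 1 beta, stood at 4.49 ± 0.18 on day 1 and 0.63 ± 0.18 on day 14 (adjusted p = 0.0127), and Il6 at 4.75 ± 0.25 and 0.70 ± 0.25 (adjusted p = 0.0342).

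Most substrates rose after day 1, and 4 of 7 genes for the uptake and lysosomal breakdown of collagen were already higher on day 1. Of 15 matrix substrates, 5 were higher and 5 lower on day 1, 12 were higher and 1 lower on day 3, and 15 were higher on day 14, with medians of -0.04, 1.14 and 1.81. Col1a1 and Col3a1, chains of the fibrillar collagens, stood at 3.29 ± 0.08 and 3.16 ± 0.08 on day 10, and Tnc, tenascin C, at 3.80 ± 0.16. Of the 7 uptake and breakdown genes, 4 were higher and 2 lower on day 1, with a median of 0.71 against 0.04 over all genes, 6 were higher on day 3, and all 7 were higher on each of days 5, 7, 10 and 14. Ctsk, the collagenolytic cathepsin K, fell by 0.58 ± 0.20 on day 1 (limma adjusted p = 0.0339) and rose by 2.91 ± 0.20 by day 10 (adjusted p = 1.4e-07). Mrc1, the mannose receptor, and Ctss, cathepsin S, both also markers of macrophages, were at 1.76 ± 0.13 and 2.27 ± 0.12 on day 1 and at 2.79 ± 0.13 and 3.78 ± 0.12 on day 3. Col1a1 and Col3a1 are also in the fibroblast list.

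Genes with the most similar course were found by Pearson correlation of log2 signal over the 14 arrays, among 4282 other named genes whose day means span at least 1. The points are the same arrays for all genes and share the course over days, so the values are a description. Nearest to Mmp8 were S100a8 (r = 0.99), Ifitm6 and Chil3 (both 0.98), and nearest to Mmp9 were Treml4 (0.91), Lmnb1 (0.90) and Lrp8 (0.89), the loosest of the matches. Zeb2 (0.98), Tlr8 (0.97) and Tent5a (0.96) were nearest to Mmp12, and Stat3 (0.98), Gprc5b (0.96) and B3gnt2 (0.96) to Mmp3. Mmp19 ran closest to Tnfrsf1a (0.99), Il13ra1 and Arf6 (both 0.98). For Mmp14 these were Marcks (0.997), Mest (0.996) and Lrrc49 (0.995), for Mmp2 Pam, Adamts10 and Col14a1 (all 0.99), and for Mmp23 Olfml2b, Mpzl1 and Fat1 (all 0.995). The nearest to Mmp13 were Lpar1, Cdh11 and Golim4 (all 0.98), and to Mmp16 Fbn2, Pcdhb16 and Ubtd2 (all 0.98). Among the members themselves, Mmp14 and Mmp23 and likewise Mmp2 and Mmp13 were alike at r = 0.98, Mmp8 and Mmp9 at 0.52, and Mmp8 and Mmp2 ran against each other at -0.85. Over the 7 day means, all 3 nearest genes stayed among the top 3 only for Mmp3.

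Right and left pools were compared with the day as a block. No member passed, with differences from -0.11 (Mmp13 and Mmp3) to 0.18 (Mmp12). Mmp12 had the smallest unadjusted p among them, 0.0428 (limma adjusted p = 0.462), and was higher in the right pool on 5 of 7 days. Over all genes 0 of 19938 passed, which is 0% called.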

How the data were processed

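RNA of 14 pools was measured on Affymetrix Mouse Gene 1.0 ST arrays. The authors deposited one value for each probe set and array, read here as log2 from the range (2.35 to 14.8) and the nearly equal array medians. Partek appears in the submitters' processing notes; how probes were summarised and arrays normalized is not given in sources used here. Precision is limited by the small number of arrays.

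On the array, 35557 probe sets were listed, of which 21789 carried 1 gene symbol, 1621 several and 12147 none; only the first kind was used, and for 999 genes with several probe sets the one with the highest mean. No filter on low values was applied; all 10 members lay above the lowest 25% of genes. Days were fitted together with limma 3.58.1 in R 4.3.3 (7 residual degrees of freedom), with two-sided tests and Benjamini-Hochberg adjustment across the 19938 genes. The members and gene lists were chosen with earlier results of these data known. Named genes are the members, Timp1 to Timp4 and Reck, the 3 largest called changes of each list, the 3 brightest markers of a cell type at most, and the 3 genes nearest to each member. Alternatives were quantile normalization, equal array medians, a filter on low genes, averaged probe sets per gene, limma's intensity trend with robust estimation, only the arrays compared, the side as a block and each array left out in turn. Left and right are labels and not animals shared between days: side differences correlated between days at r from -0.19 to 0.35 (median 0.07, 6 of 21 pairs over 0.1), so the side does not pair the days. Data were also simulated for day 3 against day 0 over 19938 genes. Of 50 genes changed by 0.5, 46% were recovered, and of 50 changed by 1, 92%, and 6 unchanged genes were called. The simulation changed far fewer genes than were called on day 3 in the data (24.1% higher and 26.6% lower). Its rates therefore need not hold for the data.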

Additional observations from a re-analysis of the deposited data

Results flagged for a closer look

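3 members passed limma's test against day 0 in opposite directions on different days. The differences between those days are given below (limma, adjusted over all genes). They follow from the opposite calls against the same day 0 and are not separate support for them. The calls of Mmp8 on days 1 and 7 and of Mmp23 on day 1 ended without certain single arrays, as given above. Mmp8, higher on day 1 and lower later, was at -2.35 ± 0.37 on day 7, -2.85 ± 0.37 on day 10 and -2.95 ± 0.37 on day 14 relative to day 1 (adjusted p = 2.0e-04, 4.1e-05 and 3.5e-05). Mmp9, lower only on day 14, stood on that day at -3.02 relative to day 1, -2.72 to day 3, -2.51 to day 5, -2.71 to day 7 and -2.10 to day 10, each ± 0.23 (adjusted p from 4.0e-07 to 7.0e-04). Mmp23, lower only on day 1, was 1.65 higher on day 3 than on day 1, 2.55 on day 5, 2.86 on day 7, 2.94 on day 10 and 2.54 on day 14, each ± 0.09 (adjusted p from 2.6e-10 to 1.2e-07).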

How the results depend on the processing

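The counts of members higher on days 5, 7, 10 and 14 were 9, 9, 9 and 8 under all alternatives run, and 10 of 10 passed the F test. No called member changed direction in any alternative. Of 420 values against day 0 under other settings 5 lost and 3 gained a call, and of 240 with 1 array left out 9 lost and 2 gained one; of 350 and 200 against the day before, 1 and 21 lost and 12 and 1 gained one. With 2 arrays per day, leaving 1 out leaves a lone array that is assumed to vary like the others. Counts then ranged from 0 to 2 for members lower on day 1, from 0 to 1 for those lower on day 7, from 1 to 1 (main 2) for those lower on day 3 than on day 1, from 0 to 0 (main 1) for those lower on day 7 than on day 5, from 0 to 1 for those higher on day 14 than on day 10, and from 1 to 1 (main 3) for those lower on day 14 than on day 10. Members lower on day 1 numbered 2 with equal array medians, without the lowest 25% of genes and with an intensity trend and robust estimation, and 0 with only the 4 arrays compared. Members lower on day 7 numbered 0 with the trend, and those lower on day 7 than on day 5 numbered 0 with only the 4 arrays. Between days 7 and 10, 1 member was higher with quantile normalization and without the lowest 25%, and 2 with the trend; 1 was lower without the lowest 25% and with the trend. The side as a replicate block changed 0 of 133 results: 6 members were higher on day 1 and 8 on day 14, as without it. With equal array medians the other family members lower on days 1, 3, 5, 7, 10 and 14 numbered 1, 5, 6, 8, 6 and 5 (main 0, 2, 3, 3, 3 and 3), regulators lower on day 14 numbered 3 (main 1) and cytokines lower on day 7 numbered 3 (main 1). Causes of these changes were not tested.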
